A study of Mus musculus with 4 samples.

Results

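The genes described here encode the core proteins that write, erase and read N6-methyladenosine (m6A), a methyl mark inside mRNA. They are the writers Mettl3, Mettl14 and Wtap, the erasers Fto and Alkbh5, and the readers Ythdf1, Ythdf2, Ythdf3, Ythdc1 and Ythdc2. Each was found by its exact symbol on 1 row of every file, so that 10 of 23309 gene symbols were taken. All 10 passed the filter on low values (a mean of at least 1 FPKM over the libraries), as did 9990 symbols in all. Their mRNA was measured by paired-end sequencing in 4 libraries of ICR mouse oocytes. The libraries were Erk-/- oocytes at MII, wild-type oocytes at MII, Erk-/- oocytes at GV and wild-type oocytes at GV. GV (germinal vesicle) oocytes are arrested before meiosis resumes, and MII oocytes, arrested at metaphase of the second meiotic division, are mature eggs. Each library held the RNA of 60 cells, lysed together, from females aged 21 to 23 days. The hormones PMSG and hCG are named for all libraries, without saying which applied to which stage. The treatment text names Btg4-/- females where the genotype label reads Erk-/-, and genotype was taken from each sample's own title. The labels do not say which Erk gene or exon was removed, with which Cre driver if any, or how many females gave the cells of a library.

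In m6A writing, METTL3 is the catalytic subunit, METTL14 its RNA-binding partner in a heterodimer, and WTAP the adaptor that holds the pair in nuclear speckles. FTO and ALKBH5 are dioxygenases that remove the mark. Proteins with a YTH domain bind it: YTHDF1, YTHDF2 and YTHDF3 are closely related cytoplasmic proteins, YTHDC1 is nuclear and acts in splicing and export, and YTHDC2 is an RNA helicase needed in meiotic germ cells. YTHDF2 recruits the CCR4-NOT deadenylase to methylated mRNA, and in mice it is needed in the oocyte for normal maternal mRNA dosage. Transcription is nearly silent in fully grown oocytes, which rely on maternal transcripts stored during growth.

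With 1 library per group, no difference below could be tested against replicates, and no p-value is given. Values are FPKM (fragment number divided by transcript length and library size), which measure a share of a library rather than mRNA per oocyte. They are scaled for length, but comparisons between genes also assume that their transcripts were captured and mapped alike, which was not tested. A higher share at MII is therefore not a measured rise in transcripts per oocyte. Poly(A) tails were not measured, and what raised a share was not tested. Bounds in brackets are the lower and upper bounds deposited with each value, at a level not given in the sources used here. Their half-width was 3.30% to 25% of the value over these genes (median 10.2%, 40 values) and covers uncertainty within a library only. The sum of FPKM per library ranged over 401160 to 453226. Mapk3 (ERK1) had 34.3 FPKM (28.9 to 35.4) in the MII library labelled Erk-/- and 25.7 (21.5 to 27.2) in wild-type MII, an order that turned under median-of-ratios scaling (log2 ratio 0.40 as deposited and -0.12 scaled). At GV it had 52.3 FPKM in Erk-/- and 333 in wild type, the second of which lies above its own deposited upper bound of 316. Mapk3 was thus lower under the mutant label at GV and not at MII. In wild type it was 12.9-fold lower at MII than at GV, so the MII comparison starts from a reduced wild-type level. The mature mutant is therefore named here by its label, as the MII library labelled Erk-/-. All 10 oocyte markers were above 1 FPKM in every library. Of 12 granulosa and cumulus markers, 8 to 10 were listed at 0 in each library, among them Fshr, Foxl2 and Amh, and the list summed to 12.4 to 22.6 FPKM. Most of that sum was Cyp19a1 in the MII library labelled Erk-/- (10.8 FPKM), wild-type MII (21.8) and wild-type GV (15.5). In Erk-/- GV it was Inha (11.3), with Cyp19a1 listed at 0. Of 9 markers of other ovarian and blood cells, 7 or 8 were listed at 0, and Pecam1 (25.6 to 64.3 FPKM) made up nearly all of the rest.

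The 10 mRNAs spanned a range of 87.4-fold in wild-type MII and 34.5-fold in wild-type GV, and the order of the genes differed between the stages. In the MII library labelled Erk-/- the range was 18.7-fold, with Wtap, Alkbh5 and Ythdf3 within 1.5-fold of each other at the top and Fto and Ythdc2 at the bottom. In wild-type MII, Wtap and Ythdf3 led, Ythdc1 followed at 46.8 FPKM, and Mettl3 (20.2 FPKM, 18.0 to 22.3) and Alkbh5 (17.8 FPKM, 16.5 to 19.1) had overlapping bounds. The low end was Ythdf2 and Fto. In Erk-/- GV the range was 19.3-fold, Alkbh5 led, and the lowest gene was Mettl3. In wild-type GV, Alkbh5 stood alone at the top, 3.80-fold above the next gene. Below it the 7 genes Ythdc1, Ythdf2, Ythdf3, Ythdf1, Mettl14, Mettl3 and Wtap lay between 25.1 and 19.3 FPKM, and neighbours in this order had overlapping bounds. Fto and Ythdc2 came last.

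**Figure D1:**
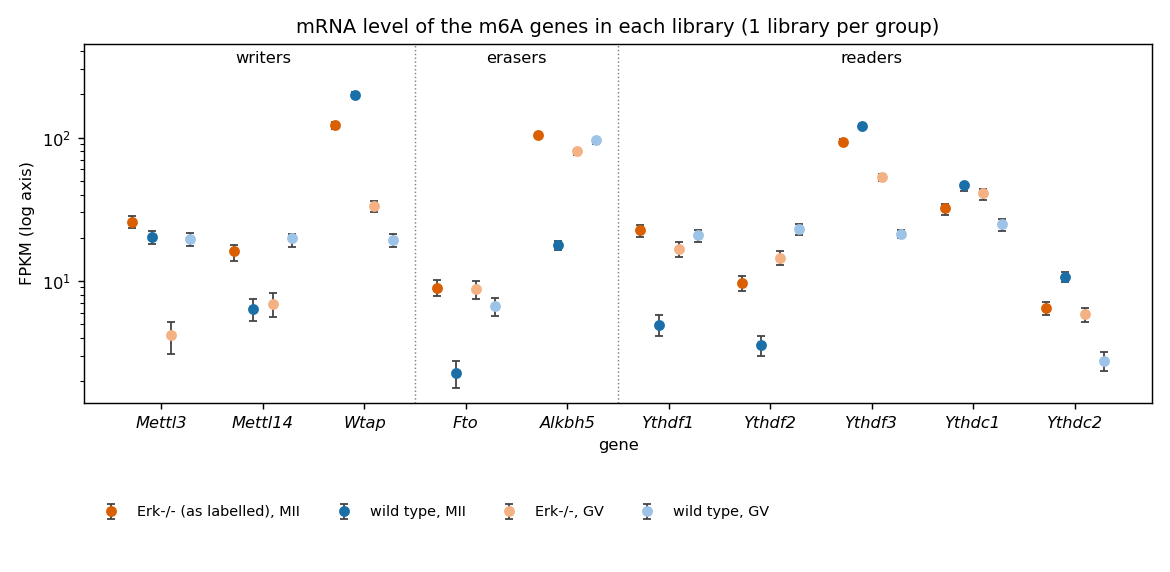
Level of each gene in each library, in FPKM on a log axis, with points at the deposited value and bars at the deposited bounds (1 library per group, so the bars are not replicate error). Alkbh5 has 17.8 FPKM in wild-type MII and 80.4 or more in the other 3 libraries, while Wtap and Ythdf3 are highest in wild-type MII.

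Stored oocyte mRNAs are handled through elements close to their 3′ ends, so the last 100 bases of each gene's principal GENCODE transcript were searched on the sense strand. The cytoplasmic polyadenylation element was searched as TTTTAT, the form that CPEB1 binds, and as a longer form, TTTTAAT. The polyadenylation signal was searched as AATAAA and as its commonest variant, ATTAAA. The longer element can share its last letters with the signal. The element was present in 2 of the 10 genes, Wtap and Mettl14, and in 20.7% of the 8609 genes that passed the filter on low values and had a 3′ UTR of 100 bases or more. The signal was present in 10 of 10 genes and in 82.1% of those 8609. The sequences shown, 30 bases of sense-strand DNA letters from the GRCm38 transcripts in GENCODE M21, are of the 2 genes with an element and of the 2 YTHDF readers whose levels diverged most at MII. Capitals mark the element and the signal.
Wtap: aaacctaAATAAAcatTTTTATtacgactc
Mettl14: TTTTATtttgctataacttttctAATAAAa
Ythdf3: tttgagggtttcAATAAAaattgttcactc
Ythdf2: tttttacatttaATTAAAaaaaatgtatgt
In Wtap the printed element starts 14 bases before the annotated end, behind the signal, and a further TTTTAT starts 100 bases before the end. In Mettl14 the element starts 23 bases ahead of the signal. Ythdf3 and Ythdf2 held no element in this window. In wild type the MII level over the GV level was 10.3-fold for Wtap, 0.324-fold for Mettl14, 5.64-fold for Ythdf3 and 0.154-fold for Ythdf2. In the libraries labelled Erk-/- it was 3.65-fold, 2.33-fold, 1.77-fold and 0.669-fold, in that order. Whether the element bears on these levels was not tested. The reference is of another mouse strain than ICR, and the transcript ends used in these oocytes were not measured.

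Among the writers, the 3 mRNAs were level with each other in wild-type GV, and Wtap stood well above the other two in every other library. Wtap (mm9, chr17:13159665-13185405) had 121 FPKM (116 to 128) in the MII library labelled Erk-/-, 198 (191 to 207) in wild-type MII, 33.2 (30.1 to 36.3) in Erk-/- GV and 19.3 (17.1 to 21.2) in wild-type GV. Both MII libraries were above both GV libraries. The MII level was 3.65-fold the GV level in the libraries labelled Erk-/- and 10.3-fold in wild type (8.98 to 12.1 from the bounds). In wild type that ratio was higher than those of 97.6% of the 9990 genes.

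Mettl3 (mm9, chr14:52914517-52924799) had 25.8 FPKM (23.3 to 28.2) in the MII library labelled Erk-/-, 20.2 (18.0 to 22.3) in wild-type MII, 4.17 (3.09 to 5.18) in Erk-/- GV and 19.7 (17.6 to 21.7) in wild-type GV. Erk-/- GV was the only library that stood apart by 2-fold or more, at 21.2% of the wild-type GV level. In wild type the MII value was 1.03-fold the GV value, with overlapping bounds, beside a median log2 ratio of -0.97 over all genes. In the libraries labelled Erk-/-, MII was 6.18-fold above GV (4.51 to 9.12). The Mettl3 locus overlaps that of Tox4 by 668 bases, and whether reads were counted by strand is not given in the sources used here.

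Mettl14 (mm9, chr3:123071213-123088908) had 16.1 FPKM (13.8 to 17.7) in the MII library labelled Erk-/-, 6.40 (5.24 to 7.52) in wild-type MII, 6.89 (5.59 to 8.16) in Erk-/- GV and 19.8 (17.1 to 21.3) in wild-type GV. It was therefore high in 1 library of each stage. The MII level was 2.33-fold the GV level in the libraries labelled Erk-/-, and in wild type MII was 3.09-fold below GV (2.28 to 4.06). The Mettl3 to Mettl14 mRNA ratio, for 2 proteins that work as a pair, was 1.60 in the MII library labelled Erk-/-, 3.15 in wild-type MII, 0.604 in Erk-/- GV and 0.995 in wild-type GV. The Wtap to Mettl14 ratio was 7.56, 30.9, 4.82 and 0.975 in the same libraries. Summed over the 3 genes, the writers had 163 FPKM in the MII library labelled Erk-/-, 225 in wild-type MII, 44.3 in Erk-/- GV and 58.7 in wild-type GV, and Wtap supplied 74.4%, 88.2%, 75.0% and 32.8% of these sums, in that order.

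Both erasers were lower in wild-type MII than in the other 3 libraries. Alkbh5 (mm9, chr11:60351185-60372014) had 105 FPKM (99.8 to 107) in the MII library labelled Erk-/-, 17.8 (16.5 to 19.1) in wild-type MII, 80.4 (76.1 to 82.7) in Erk-/- GV and 95.4 (90.7 to 97.5) in wild-type GV. Wild-type MII stood alone, and the other 3 libraries lay within 1.5-fold of each other. In wild type the MII level was 5.36-fold below the GV level (4.76 to 5.91), whereas in the libraries labelled Erk-/- it was at 130% of the GV level. At MII the library labelled Erk-/- was 5.89-fold above wild type (5.24 to 6.50), a ratio higher than those of 92.2% of the 9990 genes. Fto (mm9, chr8:93837424-94192332) had 8.98 FPKM (7.78 to 10.1) in the MII library labelled Erk-/-, 2.27 (1.78 to 2.75) in wild-type MII, 8.71 (7.43 to 9.95) in Erk-/- GV and 6.67 (5.68 to 7.65) in wild-type GV. Like Alkbh5, Fto was lowest in wild-type MII, at lower levels, and the Alkbh5 to Fto ratio was 7.86 to 14.3 over the libraries. At GV the 2 differed, with Erk-/- at 130% of wild type for Fto (overlapping bounds) and 84.3% for Alkbh5. At MII, Fto was 3.96-fold higher in the library labelled Erk-/- than in wild type (2.83 to 5.67), and in wild type MII was 2.95-fold below GV.

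Of the cytoplasmic readers, Ythdf1 and Ythdf2 were lowest in wild-type MII and Ythdf3 was highest there. Ythdf2 (mm9, chr4:131740831-131768171), the reader that brings the deadenylase to methylated mRNA, had 9.67 FPKM (8.54 to 10.7) in the MII library labelled Erk-/-, 3.57 (2.96 to 4.15) in wild-type MII, 14.5 (12.8 to 16.1) in Erk-/- GV and 23.2 (21.0 to 24.9) in wild-type GV. None of the 4 values had bounds that overlapped. MII was lower than GV in both genotypes, reaching 66.9% of it in the libraries labelled Erk-/- and lying 6.49-fold below it in wild type (5.07 to 8.40). It was lower in Erk-/- than in wild type at GV (62.5%) and higher in the library labelled Erk-/- at MII (2.71-fold, 2.06 to 3.63). In wild type 29.3% of the 9990 genes had a lower maturation ratio.

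Ythdf1 (mm9, chr2:180639082-180655641), which is described as promoting translation of methylated mRNA, had 22.7 FPKM (20.2 to 24.5) in the MII library labelled Erk-/-, 4.94 (4.09 to 5.78) in wild-type MII, 16.8 (14.6 to 18.6) in Erk-/- GV and 20.9 (18.6 to 22.8) in wild-type GV. As with the erasers, wild-type MII was the low library and the other 3 lay within 1.5-fold of each other. In wild type MII was 4.23-fold below GV (3.21 to 5.58), and at MII the library labelled Erk-/- was 4.59-fold above wild type (3.49 to 6.01).

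Ythdf3 (mm9, chr3:16083183-16117038) had 93.1 FPKM (90.2 to 97.2) in the MII library labelled Erk-/-, 120 (117 to 125) in wild-type MII, 52.8 (49.9 to 55.7) in Erk-/- GV and 21.3 (19.9 to 22.8) in wild-type GV. Both MII libraries were above both GV libraries, as for Wtap. MII was 1.77-fold above GV in the libraries labelled Erk-/- and 5.64-fold above it in wild type (5.14 to 6.30), and at GV Erk-/- was 2.48-fold above wild type.

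Summed, the 3 YTHDF mRNAs had 125 FPKM in the MII library labelled Erk-/-, of which Ythdf3 made up 74.2%, Ythdf1 18.1% and Ythdf2 7.71%. In wild-type MII the sum was nearly the same, 129 FPKM, but Ythdf3 made up 93.4% of it, Ythdf1 3.84% and Ythdf2 2.77%. Erk-/- GV, at 84.0 FPKM, had 62.8% Ythdf3, 20.0% Ythdf1 and 17.2% Ythdf2. In wild-type GV the 3 mRNAs had nearly equal levels, with 32.6% Ythdf3, 32.0% Ythdf1 and 35.4% Ythdf2 of 65.4 FPKM. The Ythdf3 to Ythdf2 ratio was 9.63 in the MII library labelled Erk-/-, 33.7 in wild-type MII, 3.65 in Erk-/- GV and 0.920 in wild-type GV (0.798 to 1.08 from the bounds). The GV libraries of the 2 genotypes also differed in this composition.

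**Figure D2:**
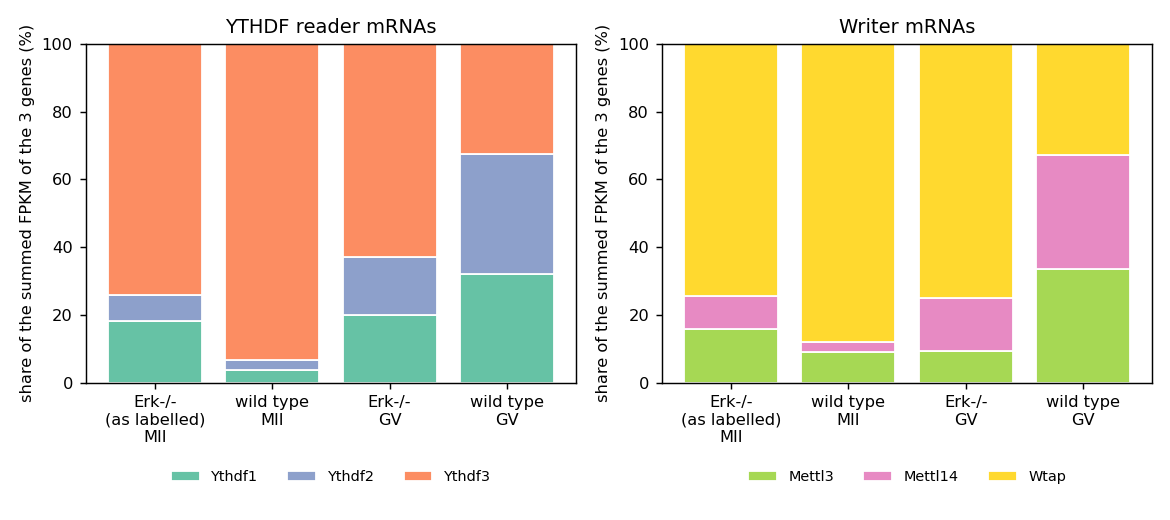
Share of each gene in the summed FPKM of the 3 YTHDF genes (left) and of the 3 writer genes (right), in percent, for each library. In wild-type MII Ythdf3 takes 93.4% and Wtap 88.2%, and in wild-type GV each family is divided nearly evenly.

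The readers of the YTHDC type were both above their wild-type GV level in wild-type MII. Ythdc1 (mm9, chr5:87233515-87265682), the nuclear reader, had 32.4 FPKM (29.0 to 34.3) in the MII library labelled Erk-/-, 46.8 (42.3 to 48.5) in wild-type MII, 41.3 (36.9 to 43.7) in Erk-/- GV and 25.1 (22.3 to 27.2) in wild-type GV. It varied least of the readers, and each of its comparisons between 2 libraries was within 2-fold as deposited (after median-of-ratios scaling it passed 2-fold in wild-type maturation and between the genotypes at MII). MII was 1.28-fold below GV in the libraries labelled Erk-/- and 1.86-fold above it in wild type (1.56 to 2.17). Ythdc2, the helicase reader, had 6.49 FPKM (5.81 to 7.16) in the MII library labelled Erk-/-, 10.7 (9.76 to 11.6) in wild-type MII, 5.82 (5.12 to 6.51) in Erk-/- GV and 2.77 (2.35 to 3.18) in wild-type GV. Both Erk-/- libraries lay between the wild-type ones. MII was 1.12-fold GV in the libraries labelled Erk-/-, with overlapping bounds, and 3.85-fold GV in wild type (3.07 to 4.93).

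Counts were then set against the whole table, calling a gene higher or lower at a ratio of at least 2-fold in FPKM + 1, a scale that shrinks the differences of low genes. In the libraries labelled Erk-/-, 3 of the 10 genes were higher at MII than at GV (Mettl3, Wtap, Mettl14) and none lower, against 22.9% and 35.6% of all 9990 genes. The median log2 ratio was 0.40 over the 10 genes and -0.26 over all genes. The 3 genes called there were the 3 writers, and 2 of them had Erk-/- GV levels that were 4.72-fold (Mettl3) and 2.87-fold (Mettl14) below wild type. In wild-type maturation 3 of 10 were higher at MII (Wtap, Ythdf3, Ythdc2) and 5 lower (Ythdf2, Alkbh5, Ythdf1, Mettl14, Fto), against 20.6% and 49.6% of all genes, with medians of -0.60 and -0.97. Wtap was the only one of the 10 called higher in both genotypes, as were 11.4% of all genes, and none was lower in both, as were 26.7% of all genes. With median-of-ratios scaling the all-gene median shifted by 0.18 in the libraries labelled Erk-/- and by 0.67 in wild type, which in wild type gave 4 of the 10 genes higher (Ythdc1 added) and 3 lower (Alkbh5, Ythdf1, Ythdf2), beside 29.6% and 40.4% of all genes under the same scaling. In the libraries labelled Erk-/- it gave 4 higher (Ythdf3 added) and none lower, beside 25% and 32.1% of all genes. In wild type the scaling also moved the split of called genes to 42.3% higher, against 29.3% as deposited, so most called genes were still lower.

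**Figure D3:**
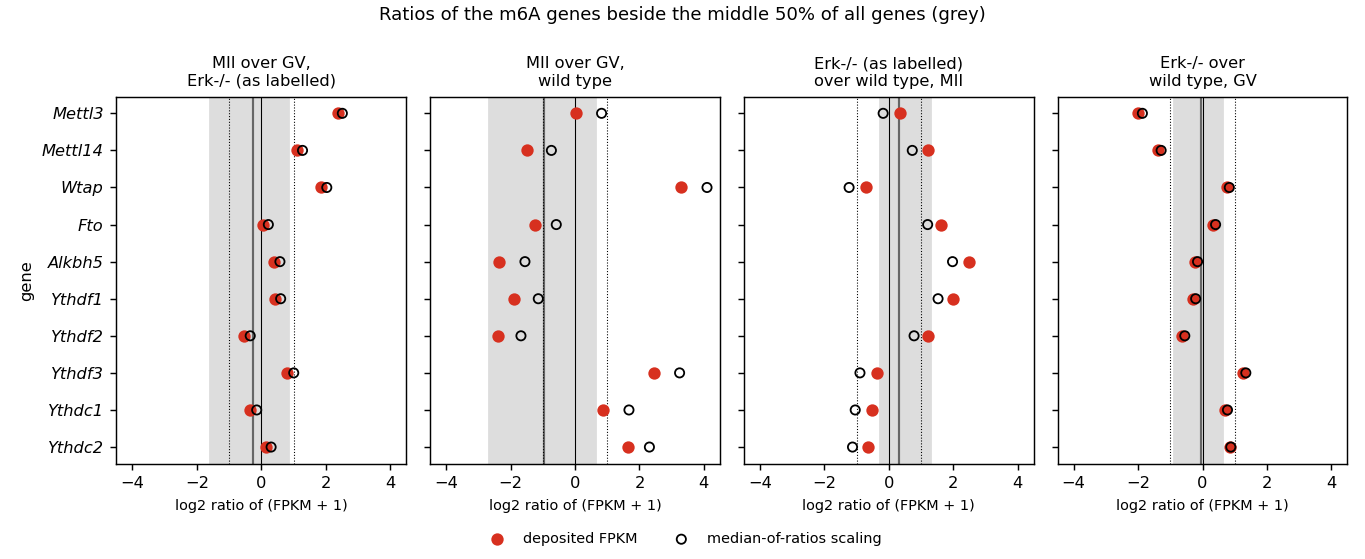
Log2 ratio of FPKM + 1 of each gene in 4 comparisons, as deposited (filled) and after median-of-ratios scaling (open). The grey band holds the middle 50% of all 9990 genes as deposited, with their median as a grey line, and dotted lines mark 2-fold. The band was not rescaled for the open points. In wild-type maturation Wtap, Ythdf3, Ythdc2 and Ythdc1 lie right of the band. For labelled Erk-/- over wild type at MII, Alkbh5, Ythdf1 and Fto lie right of it and Wtap, Ythdc2, Ythdc1 and Ythdf3 left of it, as deposited.

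At MII, 5 of the 10 genes were higher in the library labelled Erk-/- than in wild type (Alkbh5, Ythdf1, Fto, Ythdf2, Mettl14) and none was lower, against 31.4% and 7.43% of all genes. These 5 were the ones that stood lower at MII than at GV in wild type, and both comparisons use the wild-type MII library. The remaining 5 lay within 2-fold. Wtap, Ythdc2, Ythdc1 and Ythdf3 had 61.3%, 60.9%, 69.2% and 77.5% of the wild-type level with bounds that did not overlap, and Mettl3 had 128%, an order that scaling turned (log2 ratio 0.34 as deposited and -0.18 scaled). The median log2 ratio was 0.77 over the 10 genes and 0.31 over all genes. Scaling moved the median over all genes by -0.31 and gave 3 of the 10 genes higher (Alkbh5, Ythdf1, Fto) and 3 lower (Wtap, Ythdc1, Ythdc2), beside 24.6% and 17.1% of all genes under the same scaling. Of all called genes, 59.1% were then higher, against 80.9% as deposited. The direction for each of these genes rests on a mature library in which Mapk3 was not lower.

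At GV, in Erk-/- 1 of 10 was higher than in wild type (Ythdf3) and 2 were lower (Mettl3, Mettl14), against 18.4% and 22.9% of all genes, with a median log2 ratio of 0.05 over the 10 genes and -0.06 over all genes. Ythdc2 had 2.10 times the wild-type FPKM (1.61 to 2.77), a difference that the added 1 placed below the 2-fold line. Alkbh5, Fto and Ythdf1 lay at 84.3%, 130% and 80.3% of wild type, the last 2 with overlapping bounds.

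The wild-type maturation ratio was then subtracted from the ratio of the libraries labelled Erk-/-. The difference was beyond 2-fold for 10 of the 10 genes, as for 60.1% of all genes. The call was lost for Fto with median-of-ratios scaling, with a pseudocount of 5 and with the nearest deposited bounds, for Ythdc2 with that pseudocount and with the nearest bounds, and for Ythdc1 with the nearest bounds. It was positive for 6 and negative for 4, against 41.2% and 18.8% of all genes. Positive were Alkbh5 (log2 difference 2.74), Mettl14 (2.60), Mettl3 (2.34), Ythdf1 (2.30), Ythdf2 (1.87) and Fto (1.27). Negative were Ythdf3 (-1.63), Ythdc2 (-1.49), Wtap (-1.46) and Ythdc1 (-1.21). The 4 negative genes were those with the highest wild-type maturation ratios, which enter the difference with a minus sign. The libraries that set the difference varied by gene. For Alkbh5, Ythdf1 and Fto the genotypes were within 1.5-fold at GV and 3.96-fold to 5.89-fold apart at MII, whereas for Mettl3 they were 1.28-fold apart at MII and 4.72-fold at GV.

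**Figure D4:**
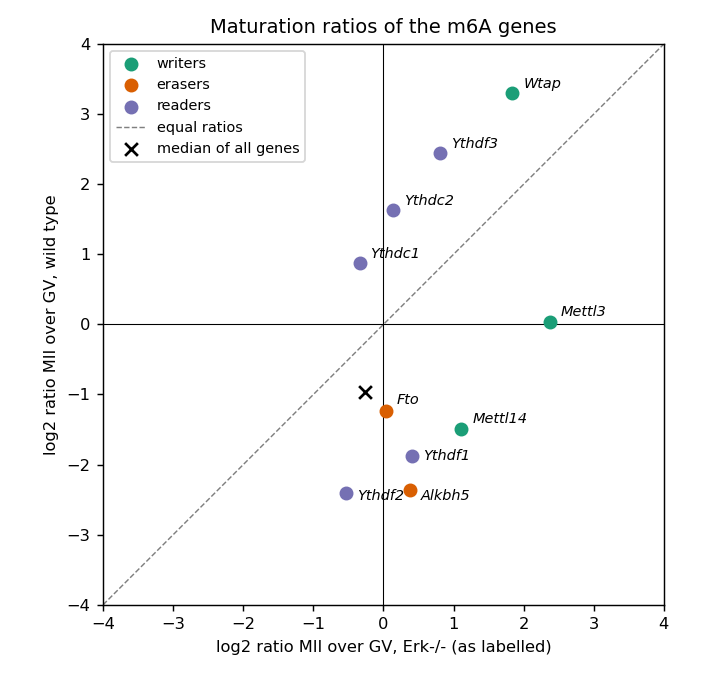
Log2 ratio of MII over GV in the libraries labelled Erk-/- (horizontal) and in wild type (vertical) for the 10 genes, with the median of all 9990 genes as a cross and equal ratios as a dashed line. Wtap, Ythdf3, Ythdc2 and Ythdc1 lie above the line and the other 6 genes below it.

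Of 33 further genes of the pathway, in 4 lists, all were found in the files and 29 passed the filter on low values. In the libraries labelled Erk-/- 9 of the 29 were higher at MII than at GV and 10 lower, beside 22.9% and 35.6% of all genes (median log2 ratio -0.59, against -0.26 over all genes). In wild-type maturation 6 were higher and 9 lower, beside 20.6% and 49.6% of all genes (median 0.17, against -0.97). At MII 6 were higher and 2 lower in the library labelled Erk-/- than in wild type, beside 31.4% and 7.43% of all genes. At GV 7 were higher and 4 lower in Erk-/-, beside 18.4% and 22.9% of all genes.

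Among other methyltransferase genes, 3 of 10 were higher and 2 lower at MII in wild type, beside 20.6% and 49.6% of all genes. Rbm15, whose protein recruits the writer complex to RNA, had 29.1 FPKM in the MII library labelled Erk-/- and 58.7 in wild-type MII, which were 3.66-fold and 8.38-fold above the GV libraries of the same genotypes. Trmt112, a cofactor of several methyltransferases including METTL5, had 150 FPKM in the MII library labelled Erk-/-, 281 in wild-type MII, 86.0 in Erk-/- GV and 43.2 in wild-type GV. Both GV values lie above their own deposited upper bounds, 83.8 in Erk-/- and 42.8 in wild type. Cbll1, the HAKAI subunit of the writer complex, had 3.09 FPKM in wild-type MII and 19.1 in wild-type GV. Virma, the scaffold subunit, listed in the files under an older symbol, had 13.2 FPKM in Erk-/- GV and 27.7 in wild-type GV. Zc3h13, another subunit, had 35.9 FPKM in the MII library labelled Erk-/- and 11.0 in Erk-/- GV. Pcif1, which methylates the adenosine next to the mRNA cap, had 4.23 FPKM in the MII library labelled Erk-/-, 11.4 in wild-type MII, 12.7 in Erk-/- GV and 4.85 in wild-type GV. It was thus lower under the mutant label at MII and higher at GV.

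Among other proposed readers, 1 of 7 was higher and 2 were lower at MII in wild type, beside 20.6% and 49.6% of all genes. Hnrnpa2b1, a nuclear RNA-binding protein, had 123 FPKM in the MII library labelled Erk-/-, 148 in wild-type MII, 48.0 in Erk-/- GV and 20.8 in wild-type GV. Igf2bp2, which stabilises mRNA, had 43.4 FPKM in the MII library labelled Erk-/-, 35.8 in wild-type MII, 151 in Erk-/- GV and 194 in wild-type GV, so that it was lower in both MII libraries. Its wild-type GV value lies above its own deposited upper bound of 193. Prrc2a had 22.6 FPKM in the MII library labelled Erk-/- and 7.40 in wild-type MII, 3.05-fold apart. Hnrnpc, a nuclear RNA-binding protein, and Igf2bp3, a relative of Igf2bp2, were within 2-fold between the genotypes at MII, with 71.4 and 16.6 FPKM in the library labelled Erk-/- and 109 and 11.0 in wild type. At GV Igf2bp3 had 16.9 FPKM in Erk-/- and 9.67 in wild type. Rbmx had 15.2 FPKM in Erk-/- GV and was listed at 0 in the MII library labelled Erk-/- and in wild-type GV. Reads of genes with processed copies, as Rbmx and Ahcy have, may be split in ways the values do not show.

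Among partners of the YTH proteins, 2 of 8 were higher and 3 lower at MII in wild type, beside 20.6% and 49.6% of all genes, and 4 were higher in the MII library labelled Erk-/- than in wild-type MII, beside 31.4%. Cnot1, the CCR4-NOT scaffold that YTHDF2 binds, had 14.3 FPKM in the MII library labelled Erk-/- and 2.68 in wild-type MII, 5.33-fold apart, and in wild type its MII level was 13.0-fold below its GV level. Upf1, a helicase of mRNA decay reported to work with YTHDF2, had 335 FPKM in the MII library labelled Erk-/-, 409 in wild-type MII, 30.9 in Erk-/- GV and 39.8 in wild-type GV. It was thus more than 10-fold higher at MII in both genotypes. Nxf1, the mRNA export receptor, had 5.08 FPKM in the MII library labelled Erk-/-, 1.92 in wild-type MII, 23.7 in Erk-/- GV and 31.9 in wild-type GV. Rida, which links YTHDF2 to RNase P/MRP and is listed under an older symbol, had 12.6 FPKM in the MII library labelled Erk-/-, 2.47 in wild-type MII and 16.6 in wild-type GV, and was listed at 0 in Erk-/- GV. Srsf10, a splicing factor, had 30.6 FPKM in the MII library labelled Erk-/- and 20.1 in wild-type MII. Cpsf6, a polyadenylation factor, had 11.9 FPKM in Erk-/- GV and 1.90 in wild-type GV, 6.28-fold apart.

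A last list held 4 genes linked to the methyl donor S-adenosylmethionine, of which Mat2a and Mat2b encode subunits of its synthetase. None of the 4 was higher at MII in either genotype. In the libraries labelled Erk-/- 2 were lower (Mat2a and Ahcy), beside 35.6% of all genes, and in wild type 2 were lower (Ahcy and Ahcyl1), beside 49.6%. Ahcy, which clears the by-product of methylation, had 3.54 FPKM in the MII library labelled Erk-/-, 0.0372 in wild-type MII, 16.6 in Erk-/- GV and 47.2 in wild-type GV. Its relative Ahcyl1 had 9.66, 5.92, 20.3 and 29.1 FPKM in the same libraries. Mat2a, the catalytic subunit of the donor's synthetase, had 7.13 FPKM in the MII library labelled Erk-/-, 11.1 in wild-type MII, 34.4 in Erk-/- GV and 15.4 in wild-type GV, while Mat2b, a regulatory subunit, had 564 FPKM in the MII library labelled Erk-/- and 695 in wild-type MII.

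The genes whose profile over the 4 libraries was closest to that of Ythdf2 were Ap1m2, Metap2, Myh9, Tsg101 and Ctcf. Likeness was the Euclidean distance between centred log2(FPKM + 1) profiles, over 5293 genes averaging 10 FPKM or more, and these 5 lay at 0.10 to 0.17. Metap2, for example, had 17.1 FPKM in the MII library labelled Erk-/-, 6.13 in wild-type MII, 24.0 in Erk-/- GV and 40.6 in wild-type GV. The nearest of the other 9 m6A genes was Ythdf1, at a distance of 0.95, and the farthest was Wtap, at 4.37. With 4 libraries many genes can lie this close, and the distances are a description only.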

How the data were processed

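Messenger RNA of mouse oocytes was sequenced in 4 libraries, 1 per group. The authors deposited FPKM per gene with a lower and an upper bound, per the file headers. CASAVA 1.8, TopHat and mouse build mm9 were used, per the submitters' processing notes. The program behind FPKM, its annotation, the level of the bounds and the handling of multi-mapping reads were not given in the sources used here. FPKM holds no counts, so the depth is unknown. Symbols on several rows (260) were summed, and none of the 10 genes was among them. Locus starts count from 0, judged by length (9169 of 21279 genes matched this reading and 558 the other), so 1 was added. Ratios were log2((FPKM + 1)/(FPKM + 1)) over genes averaging 1 FPKM or more, called at 2-fold. Folds given for one gene are plain FPKM ratios, bracketed by dividing opposite bounds. No test was possible with 1 library per group. Groups came from sample titles. Part of the check of the genotype labels is not reported here. The genes and lists were chosen with earlier results of these data known. All 10 genes are named, and from the further lists up to 3 per comparison with the largest ratios, among those of at least 10 FPKM in a library compared. Alternatives were pseudocounts of 0.1 and 5, 2 scalings, other filters, the largest row per symbol and the nearest deposited bounds. Calculations used Python 3.11.15 and pandas 2.3.3, and the ratio and scaling steps were tested on simulated data.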

Additional observations from a re-analysis of the deposited data

Results flagged for a closer look

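For 5 of the 10 genes the MII library stood on opposite sides of its GV library in the 2 genotypes. Mettl14, Fto, Alkbh5 and Ythdf1 were above the GV level in the libraries labelled Erk-/- and below it in wild type, with log2 differences between the maturation ratios of 2.60, 1.27, 2.74 and 2.30. Ythdc1 was below the GV level in the libraries labelled Erk-/- and above it in wild type (-1.21). For 9 of the 10 genes the sign of the difference between genotypes turned between the stages. Mettl3 (2.34), Mettl14 (2.60), Alkbh5 (2.74), Ythdf1 (2.30) and Ythdf2 (1.87) were higher at MII and lower at GV in the libraries labelled Erk-/- than in wild type. Wtap (-1.46), Ythdf3 (-1.63), Ythdc1 (-1.21) and Ythdc2 (-1.49) were lower at MII and higher at GV. The values in brackets are the same log2 differences. After median-of-ratios scaling Mettl3 was lower at both stages. None of these differences was tested, since each rests on 4 single libraries. The share of all genes with such turns was not counted, so the counts of 5 and 9 do not set these genes apart. The 2 maturation ratios were 2-fold or more apart for 60.1% of all genes. For Fto in the libraries labelled Erk-/- and for Ythdf1 between the genotypes at GV, the deposited bounds overlapped.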

How the results depend on the processing

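No paired analysis was possible because each group has 1 library, and for the same reason no library could be left out. None of the ratios beyond 2-fold reversed under the alternatives run. Taking the largest row per symbol changed none of the 50 ratios of the 10 genes, and scaling to equal sums placed 49 on the same side of 2-fold. Median-of-ratios scaling placed 40 on the same side. It gave 3 of the 10 genes lower at MII in wild type (5 as deposited), beside 40.4% of all genes (49.6%). For labelled Erk-/- over wild type at MII it gave 3 higher (5) and 3 lower (0). Beside them stood 24.6% (31.4%) and 17.1% (7.43%) of all genes, with 1704 lower (742). A pseudocount of 5 gave 2 of the 10 genes higher in that comparison, with 1548 of all 9990 genes higher and 293 lower. It also gave 1109 higher and 1393 lower in Erk-/- at GV, and 1372 higher at MII in the libraries labelled Erk-/-. A pseudocount of 0.1 made Ythdc2 a further gene higher in Erk-/- at GV (2), with 2018 of all genes higher. The nearest pair of deposited bounds left 3 of the 10 genes higher at MII in the library labelled Erk-/-, 1 lower in Erk-/- at GV (Mettl3) and 2 with a negative difference of maturation ratios (Wtap, Ythdf3). The share of all genes was not counted under that setting. Genes averaging 10 FPKM or more numbered 5294, all of the 10 genes but Fto and Ythdc2 among them. Of these, 23% (1218) were higher and 48.2% (2553) lower at MII in wild type, against 20.6% and 49.6% of the 9990. In the libraries labelled Erk-/- 22.1% (1170) were higher and 35% (1854) lower, against 22.9% and 35.6%. For labelled Erk-/- over wild type at MII 33.1% (1754) were higher and 5.31% (281) lower, against 31.4% and 7.43%. At GV 12.2% (647) were higher and 14.9% (788) lower, against 18.4% and 22.9%. Differences of maturation ratios were positive for 39.1% (2070) and negative for 14% (742), against 41.2% and 18.8%. Leaving out genes listed at 0 in a library compared gave 1501 lower in Erk-/- at GV, and 2538 positive and 1101 negative differences. For the differences, which use all 4 libraries, this removed 3023 of the 9990 genes. Shares of the genes that remained were not counted. The depth of the libraries is unknown, so its effect on low genes such as Fto and Ythdc2 was not measured.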

Other observations

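The mRNA of the eraser Alkbh5 and that of the catalytic writer Mettl3 stood in very different proportion in the libraries. The Alkbh5 to Mettl3 ratio was 4.07 (3.54 to 4.59 from the bounds) in the MII library labelled Erk-/-, 0.882 (0.739 to 1.06) in wild-type MII, 19.3 (14.7 to 26.7) in Erk-/- GV and 4.85 (4.18 to 5.54) in wild-type GV. The Ythdc1 to Ythdc2 ratio varied less, from 4.39 in wild-type MII to 9.07 in wild-type GV. Together the 10 genes made up 0.107% of the summed FPKM in each MII library, 0.0628% in Erk-/- GV and 0.0560% in wild-type GV.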
